A study of Mus musculus with 8 samples.

Results

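Ccl3, Ccl4, Ccl5, Ccl6 and Ccl9 are 5 secreted CC chemokines of the macrophage inflammatory protein and related type. Their rows were taken by symbol from the expression table of sorted mouse ascites macrophages, so they are 5 of the 23469 genes listed, and all 5 were among the 8801 genes tested, whose level averaged 1 TPM or more over the libraries (TPM is a share of the library's transcripts, corrected for gene length). One population was AeEMs, the tdTomato-negative ascites-enriched macrophages that are taken as embryonic (4 Smart-seq2 libraries). They were set against AeMMs, the tdTomato-positive, monocyte-derived ones (4 libraries). Both populations came from female C57BL/6 mice of the Ms4a3 fate-mapping strain (Ms4a3Cre-RosaTdT) that had been injected intraperitoneally with ID8 cells, a line from mouse ovarian surface epithelium, at a few weeks of age and had developed bloody ascites, and no further treatment is labelled. The sort kept CD45+ CD11b+ cells with the macrophage surface marker encoded by Adgre1 and left out cells with Ly6G, SiglecF or Ly6C, the surface marks of neutrophils, eosinophils and monocytes. In this strain the Cre is driven by Ms4a3, a gene of granulocyte-monocyte progenitors, so tdTomato marks the progeny of those progenitors and its absence is read as embryonic origin. No tumour-free mouse was in the comparison.

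Facts of the whole table bear on how the values are read. The deposited values are log2(TPM + 1), TPM sums were 958862 to 974303 per library, and the number of reads behind them is unknown, so no counting error is given. They had been adjusted before deposit so that a gene's mean hardly differs between 3 sets (both libraries of replicate 1, both of replicate 2, and the 4 of replicates 3 and 4), which left AeEM 1 and AeMM 1, and likewise AeEM 2 and AeMM 2, as mirror images of each other around that mean. A second fit, called the set-term fit, holds these sets as a term and is given beside the unpaired one. The 8 macrophage and gate genes, with Lyz2, Cd68 and Csf1r as the most abundant, were present in every library. Of them, 0 passed the limma test between groups. An unadjusted limma p under 0.05 was reached by 3, and by 1 in the set-term fit, against 18.0% and 9.64% of all tested genes. Dendritic cell markers summed to 44.2 to 106 TPM in AeEMs and 6.48 to 13.4 TPM in AeMMs, and 5 of the 8 averaged under 1 TPM. In AeEMs that sum was mostly Cd209a, at a mean of 66.4 TPM, against 4.51 TPM in AeMMs. Cd209a and Itgax were higher in AeEMs in the unpaired limma fit (adjusted p = 0.0029 and 0.011). In the set-term fit Cd209a passed (0.033) and Itgax did not (0.115). Ccr7, the other one tested, had a difference of 1.48 and did not pass (limma adjusted p = 0.145). Neutrophil markers summed to 12.3 to 15.7 TPM in AeEMs and 21.0 to 30.9 TPM in AeMMs, and 5 of the 7 averaged under 1 TPM. That sum was mostly S100a8, at 11.3 TPM in AeEMs and 24.3 TPM in AeMMs (limma adjusted p = 0.0044, in the set-term fit 0.060), while Mmp8, the other one tested, had a difference of 0.58 and did not pass (adjusted p = 0.245). Erythroid genes summed to 7665 to 12745 TPM in AeEMs and 4209 to 10475 TPM in AeMMs. Of the 5 tested monocyte markers, Ly6c2 and Chil3 were lower in AeEMs, with log2 differences of -1.55 and -2.16 (limma adjusted p = 0.048 and 0.043), and neither passed in the set-term fit (0.25 and 0.20). The part of other cells in the chemokine values was not tested, and in bulk libraries a smaller number of producing cells and less RNA per cell cannot be told apart.

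CC chemokines are small secreted proteins that bind G protein-coupled receptors and direct the movement of leukocytes. Ccl3 (MIP-1 alpha) and Ccl4 (MIP-1 beta) are made by activated macrophages and lymphocytes, and Ccl3 binds Ccr1. Ccl5, also called RANTES, binds Ccr1 and Ccr3 and is a product of T and NK cells as well as of macrophages. Ccl6 (C10) and Ccl9 (MIP-1 gamma) are chemokines with a long N terminus that myeloid cells of the mouse express at rest, and they act through Ccr1.

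The 5 genes lie together on chromosome 11 (GENCODE M21 on mm10), in 139 kb that start with Ccl5 at 83525778 and end with Ccl4 at 83664683. Ccl5 (83525778 to 83530518), Ccl9 (83572919 to 83578636), Ccl6 (83587882 to 83593087) and Ccl3 (83647844 to 83649355) are on the minus strand, and Ccl4 (83662584 to 83664683) is on the plus strand. Between them lie 2 other genes, E230016K23Rik at a mean of 0.675 TPM and Rpl9-ps1 at 0.364 TPM. E230016K23Rik runs over the whole of Ccl6 on the opposite strand, and in RefSeq the model of Ccl4 overlaps Ccl3 by 755 bp on the other strand. The library kit does not mark strand, so reads from such overlaps cannot be assigned by strand. Transcripts of Ccl6 and Ccl9 share a longest identical run of 25 bases and those of the other pairs 9 to 13 bases, so reads longer than these runs tell the members apart.

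Promoter entries (RefSeq, GRCm38.p6) were found for 3 of the 5 genes, Ccl3, Ccl6 and Ccl9. The bases just before the starts of Ccl6 and Ccl9 are shown because these neighbours are the most abundant members and the pair whose ratio did not overlap between the groups. Each stretch is the 150 bases before the start, on the minus strand, at chr11:83593088-83593237 for Ccl6 and chr11:83578637-83578786 for Ccl9, and capitals mark the ETS family core GGAAGT or its reverse complement.
Ccl6: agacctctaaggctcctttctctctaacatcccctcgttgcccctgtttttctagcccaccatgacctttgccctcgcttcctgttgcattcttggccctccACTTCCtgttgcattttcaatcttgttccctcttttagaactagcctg
Ccl9: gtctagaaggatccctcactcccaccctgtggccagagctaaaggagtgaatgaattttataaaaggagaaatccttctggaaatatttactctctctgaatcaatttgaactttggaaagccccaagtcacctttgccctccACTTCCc
The ETS core, bound in macrophages by the lineage factor PU.1 among others, lies 48 bases before the start in Ccl6 and 7 bases before it in Ccl9. Ccl3 has 1 match, upstream of its last 150 bases. The core is found in 19.8% of 32536 promoters over the same 250 bases, either strand counted. The copies of Ccl6 and Ccl9 lie in a stretch of 17 bases of which 16 are identical between the 2 genes, at 59 to 43 bases before the start in Ccl6 and 18 to 2 bases before it in Ccl9. In the 250 bases, Ccl9 has 3 matches to the TATA box letters TATAAA (12.3% of promoters hold one), 2 of which overlap, 1 match to the AP-1 letters TGANTCA (6.73%) and 2 to the NF-kB motif (16.9%), whereas neither Ccl6 nor Ccl3 has a match to any of these. The C/EBP letters TTGCNNAA (9.57%) are in none of the 3 windows. A match is a description of letters and was not tested as a site.

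The 5 chemokines differed widely in level and kept one order in 8 of 8 libraries, Ccl6 above Ccl9, then Ccl3, Ccl4 and Ccl5. Ccl6 averaged 19964 TPM and was the gene ranked 7 of all by mean level, at rank 7 in all 4 AeEM libraries and at rank 7 or 8 in the AeMM libraries. Ccl9 averaged 3093 TPM (rank 36), Ccl3 203 TPM (rank 294), Ccl4 56.8 TPM (rank 928) and Ccl5 9.43 TPM (rank 3338). On the log2(TPM + 1) scale neighbours in this order never overlapped. The narrowest gap was between Ccl4, whose lowest library stood at 5.06, and Ccl5, whose highest stood at 4.21. On average Ccl6 was 6.49-fold above Ccl9, Ccl9 was 15.2-fold above Ccl3, Ccl3 was 3.66-fold above Ccl4 and Ccl4 was 5.85-fold above Ccl5, each from the mean difference on that scale. Together the 5 genes held 2.24% to 2.58% of the TPM in AeEMs and 2.22% to 2.65% in AeMMs. Within that sum Ccl6 alone made up 83.6% to 85.1% in AeEMs and 86.0% to 87.9% in AeMMs. Of the TPM of all 16 Ccl genes in the table, the 5 accounted for 92.7% to 94.3% in AeEMs and 90.0% to 91.9% in AeMMs.

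**Figure D1:**
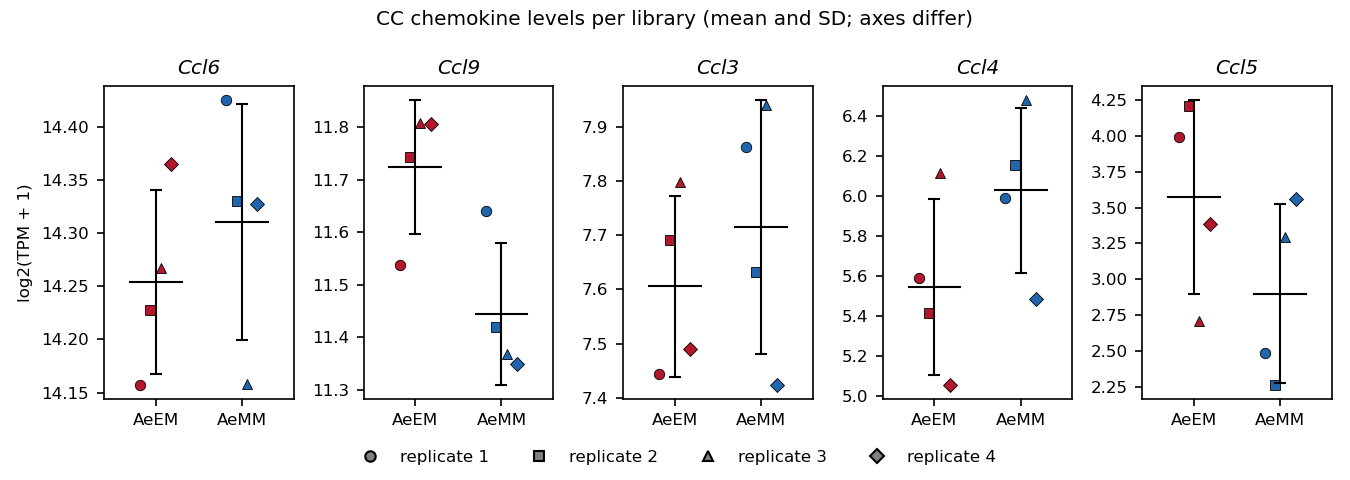
Level of the 5 chemokines in each library, in log2(TPM + 1), with AeEM left of AeMM, 1 symbol per library by replicate number, the group mean as a line and its SD as a bar; the axes differ between genes. AeEM and AeMM libraries overlap for each gene, for Ccl9 only through replicate 1.

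None of the 5 passed the threshold between AeEMs and AeMMs (limma, Benjamini-Hochberg adjusted p under 0.05 over 8801 genes). Of all genes tested, 212 (2.41%) passed, 110 higher and 102 lower in AeEMs. In the set-term fit 14 genes (0.159%) passed and again 0 of the 5. At an unadjusted p under 0.05 there was 1 of the 5, Ccl9, in both fits, while 18.0% of all tested genes reached that level in the unpaired fit and 9.64% in the set-term fit. The AeEM and AeMM libraries failed to overlap for 0 of the 5, against 12.2% of tested genes. These p-values measure the spread between the 8 libraries that was left after the sets were adjusted. The unpaired fit and the permutation tests over all 8 libraries treat them as independent. The adjustment links the libraries of a set, so these p-values can be too small. Neither the labels nor the methods say which libraries share a mouse.

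**Figure D2:**
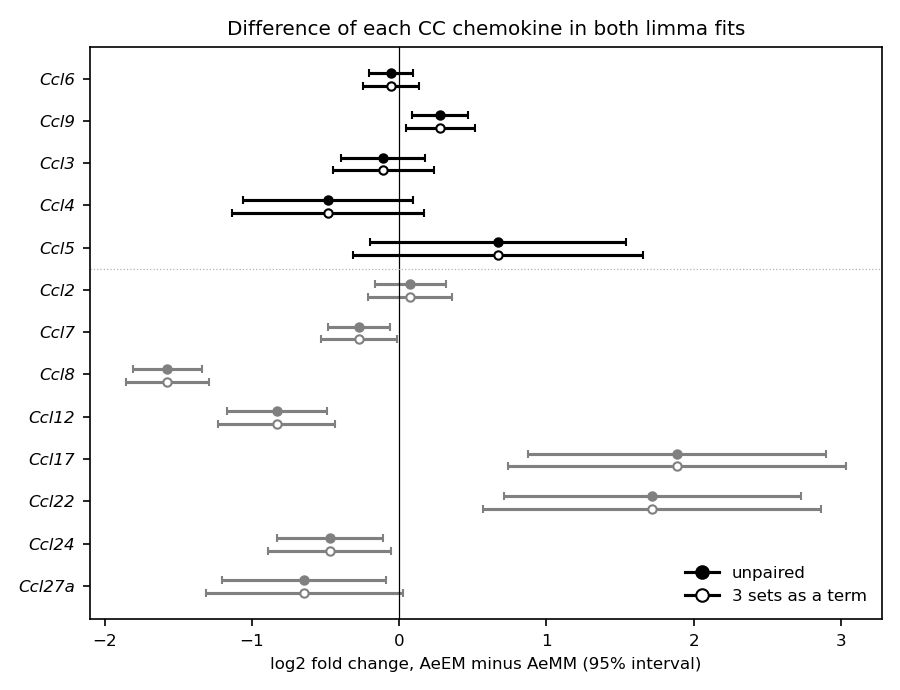
AeEM minus AeMM difference with its 95% interval, in log2(TPM + 1), for the 5 chemokines (black) and the 8 other CC chemokines tested (grey). Filled points are from the unpaired limma fit and open points from the set-term fit. The intervals of Ccl3, Ccl4, Ccl5 and Ccl6 include 0, that of Ccl9 lies above 0, and of the grey genes Ccl8 and Ccl12 passed the adjusted threshold in the unpaired fit.

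Ccl6 was nearly level between the populations. It stood at 14.16, 14.23, 14.27 and 14.36 log2(TPM + 1) in AeEMs and at 14.43, 14.33, 14.16 and 14.33 in AeMMs. The libraries of both groups cover the same narrow range. Means were 14.25 ± 0.09 in AeEMs and 14.31 ± 0.11 in AeMMs (SD, n = 4 each), a difference of -0.06 (SE 0.07, 95% interval -0.21 to 0.09, limma adjusted p = 0.73).

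Ccl9 came closest to a difference. It stood at 11.54, 11.74, 11.81 and 11.81 log2(TPM + 1) in AeEMs and at 11.64, 11.42, 11.37 and 11.35 in AeMMs. The groups overlapped only through AeEM 1, which lay below AeMM 1. Means were 11.72 ± 0.13 in AeEMs and 11.44 ± 0.13 in AeMMs (SD, n = 4 each), a difference of 0.28 (SE 0.08, 95% interval 0.09 to 0.47) or 1.21-fold (1.06 to 1.39). In limma the unadjusted p was 0.0090 and the adjusted p 0.127, against 0.0248 and 0.425 in the set-term fit. The two-sided exact permutation test over 70 labellings gave p = 0.0571. Set by set the difference was -0.10 (replicate 1), 0.32 (replicate 2) and 0.45 (replicates 3 and 4), so it was not in one direction throughout.

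Of the 5 levels and 2 ratios compared, the balance of Ccl6 and Ccl9 was the one on which the populations did not overlap. Among single tested genes 12.2% did not overlap, and the share among ratios of other gene pairs was not computed. The log2 ratio of Ccl6 over Ccl9 within a library was 2.62, 2.49, 2.46 and 2.56 in AeEMs and 2.78, 2.91, 2.79 and 2.98 in AeMMs. Every AeEM library lay below every AeMM library, which by itself fixes the direction in each of the 3 sets. The differences there were -0.16, -0.43 and -0.38. Means were 2.53 ± 0.07 in AeEMs and 2.87 ± 0.09 in AeMMs (SD, n = 4 each), that is, 5.78 times as much Ccl6 as Ccl9 in AeEMs and 7.29 times in AeMMs. The two-sided exact permutation test of the difference of -0.34 gave p = 0.0286, the smallest that 70 labellings can give, and 0.0571 after adjustment over the 2 ratios compared, so the difference failed the correction. With labels exchanged only within the 3 sets the exact permutation p was 0.0833, the smallest possible there. With quantile scaling, which sets values by rank, the difference was -0.039 (exact permutation p = 0.657).

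**Figure D3:**
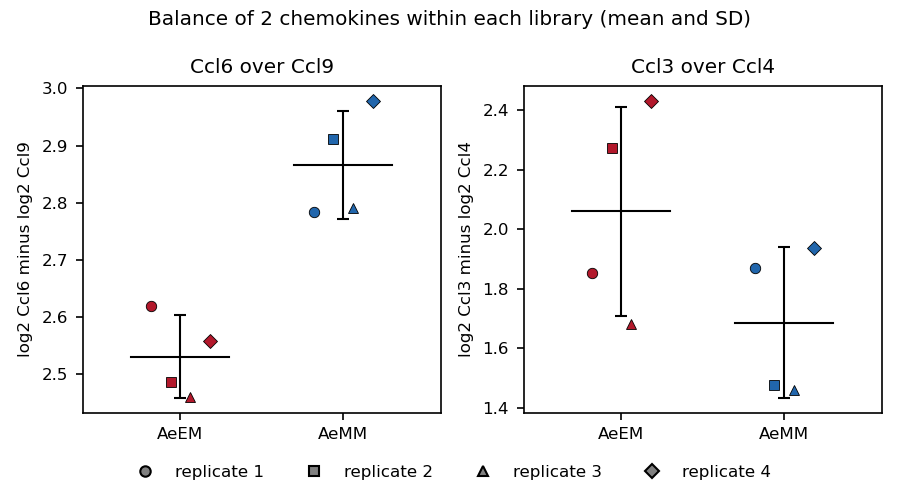
Log2 ratio of Ccl6 over Ccl9 and of Ccl3 over Ccl4 within each library, AeEM left of AeMM, with the group mean as a line and its SD as a bar. The 4 AeEM libraries lie between 2.46 and 2.62 for Ccl6 over Ccl9 and the 4 AeMM libraries between 2.78 and 2.98, while the groups overlap for Ccl3 over Ccl4.

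Ccl3 and Ccl4, the pair that inflammatory stimuli induce together, were both slightly lower on average in AeEMs, and neither passed the test. Ccl3 stood at 7.44, 7.69, 7.80 and 7.49 log2(TPM + 1) in AeEMs and at 7.86, 7.63, 7.94 and 7.42 in AeMMs. The lowest and the highest of all 8 libraries were both AeMMs. The difference in Ccl3 was -0.11 (SE 0.13, 95% interval -0.40 to 0.18, limma adjusted p = 0.72), and set by set it was -0.42, 0.06 and -0.04. Ccl4 stood at 5.59, 5.42, 6.12 and 5.06 in AeEMs and at 5.99, 6.16, 6.48 and 5.49 in AeMMs. The AeEM side was lower in each of the 3 sets, by differences of -0.40, -0.74 and -0.40, although the groups overlapped. Means of Ccl4 were 5.54 ± 0.44 in AeEMs and 6.03 ± 0.41 in AeMMs (SD, n = 4 each), a difference of -0.48 (SE 0.25, 95% interval -1.06 to 0.09, limma adjusted p = 0.37) or 0.715-fold (0.480 to 1.07). With limma's array weights, which gave most weight to replicates 1 and 2, it passed (adjusted p = 0.043).

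The log2 ratio of Ccl3 over Ccl4 was 1.85, 2.27, 1.68 and 2.43 in AeEMs and 1.87, 1.48, 1.46 and 1.94 in AeMMs. AeEM 1 and AeEM 3 lay within the range of the AeMMs. The mean was 2.06 ± 0.35 in AeEMs and 1.69 ± 0.25 in AeMMs (SD, n = 4 each), and the difference of 0.37 gave p = 0.171 in the two-sided exact permutation test. Over the 8 libraries, which share the adjustment of the sets, Ccl3 and Ccl4 had the highest Pearson r of all 10 pairs of members, 0.76 (Spearman rho 0.60). Ccl6 and Ccl9 had an r of 0.22, and Ccl5 ran opposite to Ccl4 (r = -0.59) and to Ccl6 (r = -0.57).

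Ccl5 was the least abundant and the most variable of the 5. It stood at 3.99, 4.21, 2.71 and 3.39 log2(TPM + 1) in AeEMs and at 2.48, 2.27, 3.29 and 3.56 in AeMMs. The AeEM libraries were the higher ones by 1.51 and 1.95 in the first 2 sets, whereas in the third the difference was -0.38. Means were 3.57 ± 0.67 in AeEMs and 2.90 ± 0.62 in AeMMs (SD, n = 4 each), a difference of 0.67 (SE 0.38, 95% interval -0.20 to 1.54, limma adjusted p = 0.41) or 1.59-fold (0.873 to 2.91). With array weights the difference was 1.38 and passed (limma adjusted p = 0.013), and within the third set alone it was reversed.

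Because lymphocytes also make Ccl5, its values were set beside lymphocyte markers. Of 14 T and NK cell markers, 11 had a mean under 1 TPM, and the list summed to 3.25 to 16.5 TPM in AeEMs and 11.9 to 30.9 TPM in AeMMs. Nkg7, a granule gene of NK cells and cytotoxic T cells, was lower in AeEMs, with a log2 difference of -2.41 (limma adjusted p = 0.011, in the set-term fit 0.071). The other tested members of this list, Trbc2 and Klrd1, had differences of -1.10 and 1.52 and did not pass. B cell markers summed to 106 to 172 TPM in AeEMs and 140 to 171 TPM in AeMMs, and 0 of the 5 tested passed in limma, with 0 at an unadjusted p under 0.05 in either fit. Library by library, Ccl5 followed some B cell genes, a relation noticed after the values were seen. Ms4a1 (CD20) stood at 1.34, 1.55, 0.52 and 0.66 log2(TPM + 1) in AeEMs and at 0.69, 0.47, 1.52 and 1.30 in AeMMs. The 4 libraries highest in Ms4a1, namely AeEM 1, AeEM 2, AeMM 3 and AeMM 4, include the 3 highest in Ccl5, and AeMM 3 lay just below AeEM 4 in Ccl5. Pearson r with Ccl5 over the 8 libraries was 0.82 for Ms4a1, 0.80 for Ighm and 0.77 for Cd79a, but -0.46 for Cd79b, and it was -0.20 for Nkg7 and 0.00 for Trbc2. The libraries share the adjustment of the sets, which fixes the mirrored values of replicates 1 and 2. The part of T, NK and B cells in the Ccl5 values was not tested.

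**Figure D4:**
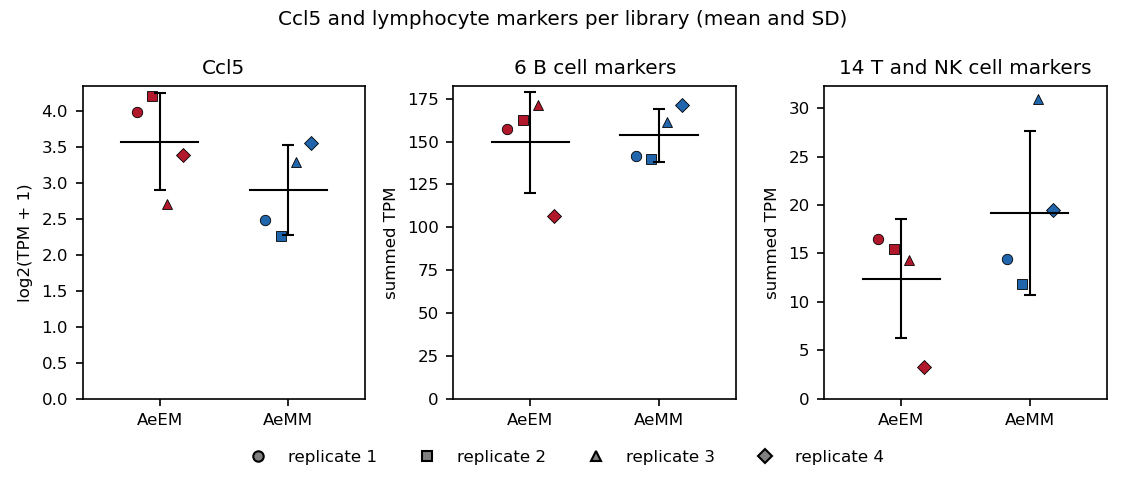
Ccl5 in log2(TPM + 1) beside the summed TPM of 6 B cell markers and of 14 T and NK cell markers, AeEM left of AeMM, 1 symbol per library, with the group mean as a line and its SD as a bar. The T and NK cell sum reaches 30.9 TPM in an AeMM library and is 3.25 TPM in AeEM 4, and the groups overlap in all 3 panels.

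The receptors of these chemokines were also measured. Of 7 genes listed, 4 were tested and 0 passed in limma in either fit, also at an unadjusted p under 0.05 (median difference 0.05, against -0.01 for all tested genes). Ccr1, the receptor of Ccl3, Ccl5, Ccl6 and Ccl9, averaged 337 TPM and differed by -0.07 (adjusted p = 0.83). Ccrl2, an atypical receptor, averaged 26.5 TPM and differed by 0.17 (adjusted p = 0.82). Libraries of both populations thus held transcripts of the ligands and of Ccr1.

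Among the other CC chemokines, Ccl8 and Ccl12 differed. Of 15 listed, 8 were tested, 0 were higher and 2 lower in AeEMs, with a median difference of -0.37. At an unadjusted limma p under 0.05 there were 7 of the 8, and 6 in the set-term fit, against 18.0% and 9.64% of all tested genes. Ccl8 and Ccl12, both monocyte chemoattractants, were lower in AeEMs, with log2 differences of -1.57 and -0.83. Their limma adjusted p was 0.00065 and 0.026, in the set-term fit 0.016 and 0.16. Ccl8 stood at 7.83, 7.74, 7.82 and 7.48 log2(TPM + 1) in AeEMs and at 9.12, 9.27, 9.51 and 9.27 in AeMMs, a gap wider than the spread within either group. Ccl2, the most abundant of this list at 762 TPM, differed by 0.07 and Ccl7 (420 TPM) by -0.27, and neither passed. Ccl17 and Ccl22, ligands of Ccr4 that dendritic cells make, had differences of 1.89 and 1.72 with limma adjusted p of 0.067 and 0.084, while the receptor Ccr4 itself was close to 0 TPM.

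Genes that are induced along with Ccl3 and Ccl4, or that govern and carry such chemokines, did not pass the test in any list. Of 11 NF-kB subunits and feedback genes, 0 passed (median 0.03), with the inhibitor gene Nfkbia at a mean of 539 TPM and a difference of 0.01. Of 10 tested inflammatory genes, 0 passed (median -0.07) and 3 had a positive difference. The most abundant were Tlr2 (72.1 TPM, difference -0.04), Cd83 (24.5 TPM, 0.12) and Cxcl10 (11.4 TPM, -0.44). Tnfsf9, named for the only unadjusted limma p under 0.05 in this list (0.016, unpaired fit), differed by 0.71. Of 12 interferon response genes and 15 immediate early and handling genes, 0 and 0 passed, with medians of -0.02 and 0.02. The immediate early list, which is induced when cells are handled, was led by Ier3 (428 TPM), Zfp36 (237 TPM) and Junb (167 TPM). Of 6 tested genes for chemokine storage, carriers and processing, 0 passed (median 0.02), with the granule proteoglycan gene Srgn at 137 TPM. In the set-term limma fit, too, 0 genes of these 5 lists passed. At an unadjusted limma p under 0.05 the lists held 1, 1, 2, 2 and 1 genes in the order given, and 0, 1, 1, 2 and 0 in the set-term fit. Of all tested genes, 18.0% reached that level in the unpaired fit and 9.64% in the set-term fit.

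Genes with patterns most like those of the members were ranked by Pearson r over the 8 libraries, as a description only. For Ccl3 these were C1galt1c1, Mbip and Rer1 (r = 0.99, 0.99 and 0.98), for Ccl4 Rassf5, Inpp5e and Smurf2 (0.997, 0.99 and 0.99), and for Ccl5 Cyb561a3, Ppif and Map3k14 (0.97, 0.96 and 0.95). For Ccl6 they were Ifi204, Vamp4 and Smarcad1 (0.99, 0.98 and 0.96), and for Ccl9 Orai2, Pus10 and Nsdhl (0.99, 0.98 and 0.98). With 8 libraries and 8801 genes high values are common, and 160 genes exceeded 0.9 for Ccl4, 71 for Ccl9, 38 for Ccl3, 33 for Ccl6 and 13 for Ccl5.

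Wfdc17, which lies beyond Ccl4 and was singled out after its values were seen, averaged 17974 TPM, close to Ccl6, and differed by -0.39 (SE 0.11, limma adjusted p = 0.112, in the set-term fit 0.398). Within the cluster, Ccl6 and Ccl9 were high, Ccl3 and Ccl4 lower, and Ccl5, at the far end, lowest, while E230016K23Rik and Rpl9-ps1 between them stayed under 1 TPM on average.

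**Figure D5:**
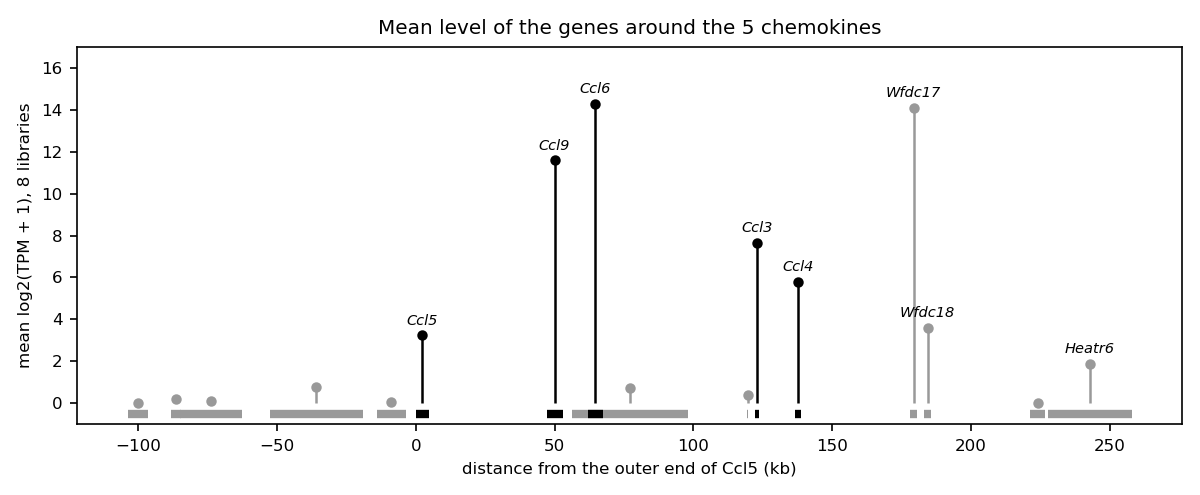
Mean log2(TPM + 1) over all 8 libraries of each gene around the cluster, against distance in kb from the outer end of Ccl5, with the 5 chemokines in black, other genes in grey and bars under the axis for the extent of each gene. Ccl6 and Wfdc17 reach similar levels, Ccl9 comes next, and the genes between the members are near 0.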

How the data were processed

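The deposited table holds bulk RNA-seq of 4 AeEM and 4 AeMM libraries. Per the methods and processing notes, the authors used Smart-seq2, fastp for read cleaning, STAR 2.7.2a with mm10 for mapping, and featureCounts (Subread) for counting. The values deposited by the authors are log2(TPM + 1), after an adjustment that makes a gene's mean hardly differ between 3 sets (replicate 1, replicate 2, replicates 3 and 4). The adjustment, the conversion to TPM, the annotation and the use of strand in counting are not given in the sources used here. Read depth is unknown, and precision rests on 4 libraries per group.

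AeEM minus AeMM was fitted without pairing in limma 3.58.1 (R 4.3.3), using its mean-variance trend, for the 8801 genes that averaged 1 TPM or more. Genes with a Benjamini-Hochberg adjusted p under 0.05 passed. Ratios of 2 members and single genes were also put through an exact two-sided permutation test with 70 labellings. A second fit had the 3 sets as a term. Lists are described by counts and medians. TPM was obtained by undoing the logarithm. Positions are from GENCODE M21 and promoters from RefSeq (GRCm38.p6). Named genes were the members, the genes of each list past the threshold and up to 3 of its other most abundant genes, genes between the members, and the 3 genes most like each member by Pearson r. Exceptions are stated where they occur. The members and lists were chosen with earlier results of these data known. The libraries were not paired, because no source says that libraries of the same number share a mouse, and after the adjustment pairing cannot be checked.

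Alternatives changed the pseudocount (0.1 and 5 TPM), the filter (none, 5 TPM), the scaling, the trend, the weights of libraries, the replicate block and the set term, used replicates 3 and 4 only, and left out each library in turn.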

Additional observations from a re-analysis of the deposited data

How the results depend on the processing

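The 5 chemokines were compared under 20 alternatives each, 100 values in all, of which 95 kept the direction and the side of the threshold. With limma's array weights 2 of the 5 passed, Ccl4 at -0.55 (adjusted p = 0.043) and Ccl5 at 1.38 (adjusted p = 0.013), and the count of all genes past the threshold was 1376 in place of 212. These weights were 2.14 to 2.37 in AeEM and 2.26 to 2.29 in AeMM replicates 1 and 2, and 0.386 to 0.482 in AeEM and 0.446 to 0.458 in AeMM replicates 3 and 4. The direction was reversed for Ccl5 with replicates 3 and 4 only (-0.38), for Ccl6 with replicates 3 and 4 only (0.073) and for Ccl6 with quantile scaling (0.060). The Ccl6 over Ccl9 ratio lost its unadjusted call with quantile scaling (-0.039, exact permutation p = 0.657), which sets the value of each gene by its rank, with the 3 sets as a term (-0.34, exact permutation p = 0.0833) and with replicates 3 and 4 only (-0.38, exact permutation p = 0.333). The last 2 designs cannot reach a p under 0.05. Ccl9 ranged from 0.10 with quantile scaling to 0.45 with replicates 3 and 4 only, and its limma adjusted p from 0.096 to 0.61.

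With the replicate number as a replicate block, the Ccl6 over Ccl9 difference was -0.34 (exact permutation p = 0.125, the smallest that 4 pairs can give), Ccl4 had an unadjusted limma p of 0.0035 and an adjusted p of 0.222, and 5 genes in all passed. The block changed no call of a single chemokine. Without one library at a time, differences ranged from -0.21 to -0.03 for Ccl3, -0.67 to -0.32 for Ccl4, 0.46 to 0.96 for Ccl5, -0.11 to -0.02 for Ccl6, 0.25 to 0.35 for Ccl9, -0.36 to -0.30 for Ccl6 over Ccl9 and 0.25 to 0.50 for Ccl3 over Ccl4, and 0 of the 5 passed in each limma fit. The count of all genes past the threshold was 136 with no trend, 14 with the 3 sets as a term, 0 with replicates 3 and 4 only, 73 without AeEM 1, 77 without AeEM 2, 77 without AeMM 1, 78 without AeMM 2 and 131 without AeMM 4. The cause of these changes was not tested.

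The filter, trend and weight alternatives give no value for the within-library ratios and were not run on them. Depth per library is unknown, and 4 libraries a group leave wide intervals for Ccl4 and Ccl5.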
